A study of Mus musculus with 20 samples.

Results

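The complement genes C1qa, C1qb, C1qc, C1ra, C3, C4b, Cfb, Cfp and Serping1 were followed in whole lymph nodes draining different stretches of the gut and in a node draining skin. These 9 genes were taken by symbol from a table of 56258 genes, and each matched 1 row. All 9 were abundant enough to be among the 29411 genes tested. The rule goes by symbol and uses no measured value.

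The mice were 9 weeks old and Rag1-/- (B6.129S7-Rag1tm1Mom/J), a strain in which mature T and B lymphocytes do not form, and every group shares this mutation. Bulk polyA RNA was sequenced from duodenal, jejunal, ileal, ceco-colonic and inguinal nodes, with 4 libraries per position, 20 in all. The duodenal, jejunal and ileal nodes are together called small intestinal (12 libraries), these with the ceco-colonic node gut-draining (16 libraries), and the inguinal node, which drains skin, stands for a node outside the gut. Libraries are numbered 1 to 4 within a position, and whether they were separate animals is not said in the labels. The p-values therefore rest on the spread among libraries, which may be technical. A library held 148.2 to 304.6 M estimated counts (M, mega counts), of which the 9 genes took 0.897% to 1.35%. Genes of lymph node stroma were present at every position: mean levels of the reticular cell chemokine gene Ccl19 were 355.5, 311, 266 and 465 counts per mega counts (CPM) in duodenal, jejunal, ileal and ceco-colonic nodes and 250.4 CPM in inguinal nodes. Rag1 itself was read at 1.98 to 3.43 CPM in the 20 libraries, a level that does not check the mutation, since the gene table does not set the altered stretch apart. Duodenal libraries 1 and 2 carried transcripts of pancreatic acinar cells: the summed level of 10 such genes was 10.4 to 32620 CPM over the duodenal libraries and at most 87.7 CPM in the others.

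Complement is a cascade of plasma and tissue proteins that tags microbes and dying cells for uptake, draws in inflammatory cells and can open pores in membranes. In the classical pathway the C1 complex, made of C1q with the proteases C1r and C1s, cleaves C4 and C2 to build an enzyme that splits C3. The alternative pathway splits C3 with an enzyme built from C3b and factor B and held together by properdin. C1q and properdin are made mainly by myeloid cells, C1q above all by macrophages, whereas C1r, C1s, C4, C3 and the C1 inhibitor are made by hepatocytes and by many stromal cells.

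The promoter table of RefSeq (build GRCm38.p6) held a window for 5 of the 9 genes: C1qb, C1qc, C1ra, C3 and Cfp. The stretches shown are the 150 bases just before the annotated start, written 5′ to 3′ on the strand of the gene. C1qb (chr4:136886201-136886350, minus strand) and Cfp (chrX:20931556-20931705, minus strand) are shown because their levels moved together over the nodes, and C3 (chr17:57228137-57228286, minus strand) because it did not move with them. Capitals mark matches to any of the motifs searched, on either strand, in the 250 bases before the start.
C1qb: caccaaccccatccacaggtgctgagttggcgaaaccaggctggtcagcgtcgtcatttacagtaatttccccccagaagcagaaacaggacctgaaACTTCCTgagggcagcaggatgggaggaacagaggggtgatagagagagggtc
Cfp: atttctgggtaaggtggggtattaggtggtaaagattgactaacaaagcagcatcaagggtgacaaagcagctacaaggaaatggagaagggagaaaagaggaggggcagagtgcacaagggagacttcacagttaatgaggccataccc
C3: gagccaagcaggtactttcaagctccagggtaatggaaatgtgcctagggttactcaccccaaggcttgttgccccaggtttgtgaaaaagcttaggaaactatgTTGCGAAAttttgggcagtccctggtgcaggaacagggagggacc

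The motifs searched were AGGAAGT of the ETS family, GAGGAAG of PU.1 (an ETS factor of myeloid cells, whose letters can overlap those of the ETS motif), TTNNGCAA of C/EBP factors, TTCNNNGAA of the interferon-gamma activated site, GGGANTTCC of the kB site, and the interferon-stimulated response element. Of 32851 promoter windows, 7.69% held the ETS motif, 10.61% the PU.1 motif, 9.56% the C/EBP motif, 7.02% the interferon-gamma activated site, 1.43% the kB site and 2.98% the interferon-stimulated response element. C1qb held the ETS motif 47 to 53 bases before its start. C3 held the C/EBP motif 38 to 45 bases before its start, and none of these letters was in the window of Cfp. The windows of C1qc and C1ra were not used here, because their annotated starts may differ from those of the transcripts in the files. A first search, with the PU.1, C/EBP, interferon-gamma activated site and kB motifs, had no match in C1qb. The ETS motif and the interferon-stimulated response element were added after those matches and the sequences had been seen, so the match in C1qb is a description only. A match is not evidence of binding.

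In TPM, a transcript abundance corrected for transcript length and scaled to the same total in every library, all 9 genes stood among the 652 most abundant of 56691 genes when averaged over the 20 libraries. C3, the central component, was the highest at 1843 ± 271 TPM (SD, n = 20) and ranked 62nd. C1qb followed at 929 ± 142 TPM, C1qa at 874 ± 132 TPM and C1qc at 703 ± 131 TPM, ranking 141st, 153rd and 187th. Serping1, the C1 inhibitor, stood at 532 ± 67.4 TPM, Cfb, factor B, at 388 ± 52.0 TPM, and C4b, the mouse C4 component, at 339 ± 53.3 TPM. Cfp, properdin, had 249 ± 33.7 TPM, and C1ra, a mouse C1r protease, had the lowest level of the 9 at 181 ± 20.4 TPM. C3 gave 25.8% to 36.5% of the summed TPM of the 9 genes in a library. In this order, C1qb and C1qa, and Cfb and C4b, lay within 1 SD of each other, and the other neighbours were farther apart. TPM is not corrected for the makeup of a library: the log2 ratio of mean levels in gut-draining over inguinal nodes was 0.12 by TPM and 0.24 by CPM for C1qa, 0.06 and 0.18 for C1qb, 0.08 and 0.20 for Cfb, and 0.37 and 0.48 for C4b. It changed sign for 3 genes, with -0.02 by TPM and 0.10 by CPM for Cfp, -0.06 and 0.06 for C1qc, and -0.01 and 0.10 for Serping1, none of which was called. Comparisons between positions use CPM scaled by edgeR's TMM factors.

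**Figure D1:**
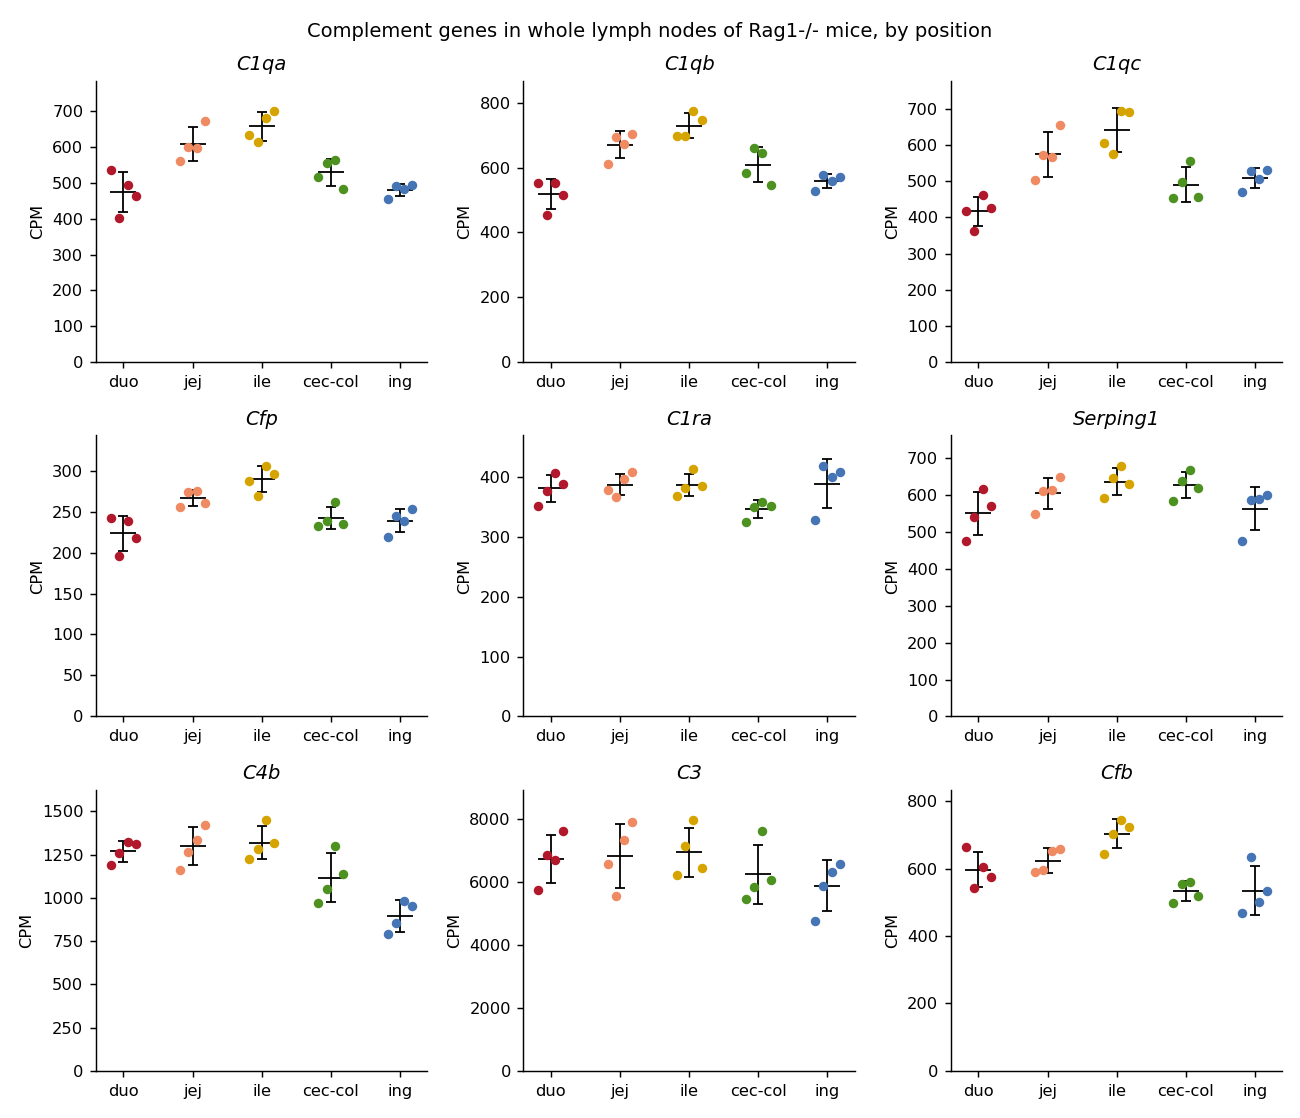
Level of each of the 9 genes in counts per mega counts (CPM, vertical axis from 0) in the 4 libraries of each position (points, duo duodenal, jej jejunal, ile ileal, cec-col ceco-colonic, ing inguinal), with the mean and SD as bars. C1qa, C1qb, C1qc, Cfp and Serping1 have their highest mean in ileal and their lowest in duodenal nodes. C3 and C4b are also highest in ileal nodes but lowest in inguinal nodes. Cfb is highest in ileal nodes too, and about equally low in ceco-colonic and inguinal nodes.

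The 9 genes differed modestly between nodes, and in 2 main ways. C1qa, C1qb, C1qc and Cfp were highest in ileal and lowest in duodenal nodes, while C4b was higher at every gut position than in the inguinal node. The highest mean was not particular to the first set, since C3, C4b, Cfb and Serping1 also had theirs in ileal nodes. Serping1 also had its lowest mean in duodenal nodes. C1ra, C3 and Serping1 did not pass the test in any comparison, although some alternatives called C1ra and Serping1. The ratio of the highest to the lowest position mean, on the log2 scale, ranged from 0.16 for C1ra to 0.62 for C1qc, against a median of 0.46 over all genes tested. A gene was called when its p in the quasi-likelihood test of edgeR, adjusted over all 29411 genes by the Benjamini-Hochberg method, was under 0.05.

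Gut-draining nodes set against the inguinal node had 4 of the 9 genes higher (C4b, C1qa, Cfb and C1qb) and 0 lower, where 26.3% of all genes were called. The median log2 fold change of the 9 was 0.17, and that of all genes 0.00. Small intestinal against ceco-colonic nodes had 2 higher, C4b and Cfb, where 16.6% of all genes were called, with a median of 0.13 for the 9 and 0.01 for all genes. Ranges of single libraries overlapped between the groups for all 9 genes in both comparisons, whereas 9.53% and 6.18% of all genes tested did not overlap. In whole nodes, fewer cells of a type and less RNA per cell cannot be told apart.

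Each gut position was also compared with the inguinal node, and these 4 comparisons share the same inguinal libraries. Ileal nodes had 6 of the 9 genes higher (C1qa, C1qb, C1qc, C4b, Cfb and Cfp), where 22.6% of all genes were called, and in all 6 the ileal libraries lay above every inguinal library. Of all genes tested, 29.4% did not overlap between ileal and inguinal libraries in either direction. Jejunal nodes had C1qa, C1qb and C4b higher, where 20.9% of all genes were called. Duodenal nodes had C4b higher and C1qc lower, where 25.3% of all genes were called. Ceco-colonic nodes had only C4b higher of the 9, where 21% of all genes were called.

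Among the gut positions, an F-test called 5 of the 9 genes, C1qa, C1qb, C1qc, Cfb and Cfp, where it called 21.3% of all genes. Duodenal nodes had C1qa, C1qb, C1qc and Cfp lower than ileal nodes (14.6% of all genes called) and lower than jejunal nodes (2.83% of all genes called). Duodenal libraries lay below every ileal and every jejunal library for these 4 genes. Of all genes tested, 17.4% did not overlap between duodenal and ileal libraries and 6.61% between duodenal and jejunal libraries. Duodenal against ceco-colonic nodes had C1qb lower (16.4% of all genes called). Ileal against ceco-colonic nodes had C1qa, C1qb, C1qc, Cfb and Cfp higher (12.8% of all genes called). Jejunal against ileal nodes had 0 of the 9 called by edgeR, DESeq2 and limma-voom, with 1 at an unadjusted p under 0.05 in edgeR (0.068% of all genes called). Jejunal against ceco-colonic nodes likewise had 0 called by the 3 tools, with 5 at an unadjusted p under 0.05 in edgeR (12.2% of all genes called).

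**Figure D2:**
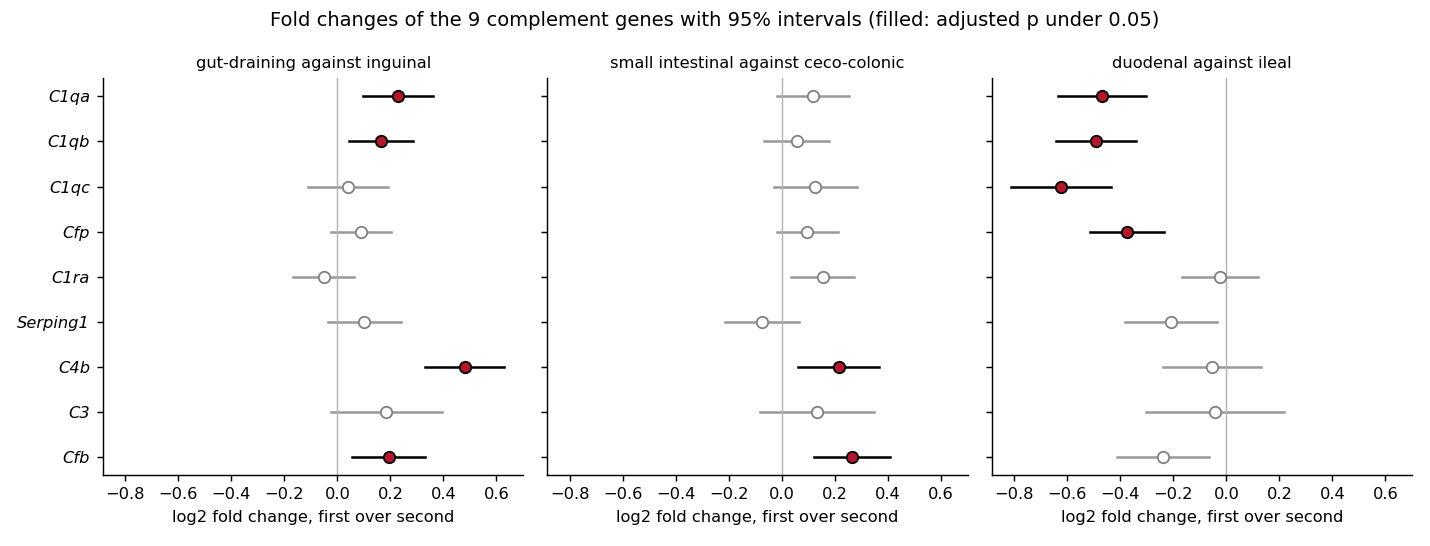
Log2 fold change (horizontal axis, position named first over position named second) of the 9 genes with its 95% interval in 3 comparisons, with filled points for adjusted p under 0.05. Between duodenal and ileal nodes C1qa, C1qb, C1qc and Cfp lie between -0.62 and -0.38, and between gut-draining and inguinal nodes C4b has the highest value, 0.48.

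C1qa, C1qb and C1qc encode the A, B and C chains that assemble into C1q, which binds antibody complexes and dying cells, and the 3 genes are direct neighbours in the RefSeq gene table. C1qa had 537, 403, 495 and 463 CPM in duodenal libraries 1 to 4, 561, 601, 597 and 673 CPM in jejunal, 635, 614, 681 and 700.3 CPM in ileal, 516, 555, 565 and 482 CPM in ceco-colonic and 455, 490.2, 483 and 494 CPM in inguinal libraries. The inguinal libraries lay close together, below all jejunal and ileal libraries and among the duodenal ones. C1qb had 552, 454, 553 and 514 CPM in duodenal, 611, 694, 671 and 703 CPM in jejunal, 697, 698, 774 and 747 CPM in ileal, 584, 661, 645 and 545 CPM in ceco-colonic and 529, 579, 559 and 569 CPM in inguinal libraries. Its order of positions was that of C1qa. C1qc had 416, 362, 461 and 426 CPM in duodenal, 504, 572, 566 and 655 CPM in jejunal, 605, 575, 694 and 692 CPM in ileal, 453, 497, 557 and 455 CPM in ceco-colonic and 471, 528, 507 and 531 CPM in inguinal libraries. Every duodenal library was below every inguinal library for C1qc, and every ileal library above.

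Duodenal nodes had less C1q transcript than ileal nodes for each chain. The log2 fold change (± SE) was -0.47 ± 0.0789 for C1qa, -0.49 ± 0.0725 for C1qb and -0.62 ± 0.0909 for C1qc, with adjusted p = 0.00109, 4.04e-04 and 3.73e-04 (quasi-likelihood test of edgeR, Benjamini-Hochberg adjustment). These calls were kept when any 1 library was left out. Without duodenal libraries 1 and 2, which carry the acinar transcripts, the fold changes were -0.46, -0.45 and -0.53, and the calls were kept. Duodenal against jejunal nodes gave -0.36 ± 0.0788 for C1qa, -0.37 ± 0.0724 for C1qb and -0.46 ± 0.0907 for C1qc, with adjusted p = 0.0184, 0.0113 and 0.0113. Without duodenal libraries 1 and 2 the fold changes were -0.34, -0.33 and -0.37, and the genes were no longer called (adjusted p = 0.0809, 0.0981 and 0.171). Without duodenal library 2 alone they were -0.28, -0.31 and -0.40, also not called (adjusted p = 0.102, 0.0539 and 0.0563), and the call of C1qa was also lost without jejunal library 4. Over the alternatives their adjusted p ranged from 2.70e-04 to 0.241.

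Ileal against inguinal nodes gave log2 fold changes of 0.45 ± 0.0789 for C1qa (adjusted p = 2.17e-04), 0.38 ± 0.0724 for C1qb (4.82e-04) and 0.33 ± 0.0906 for C1qc (0.0102). The call of C1qc was lost without ileal library 4 (adjusted p = 0.0514, range over the alternatives 0.00367 to 0.0514). Jejunal nodes were above inguinal nodes by 0.34 ± 0.0788 for C1qa (adjusted p = 0.00328) and 0.26 ± 0.0723 for C1qb (0.0124), while C1qc, at 0.17 ± 0.0905, was not called. In duodenal against inguinal nodes C1qc was lower by 0.29 on the log2 scale (-0.29 ± 0.0906, adjusted p = 0.0225), whereas C1qa and C1qb, at -0.02 and -0.11, were not called. That call was lost without duodenal library 2 (adjusted p = 0.0959) or inguinal library 2, 3 or 4. Without duodenal libraries 1 and 2 the fold change was -0.20 (adjusted p = 0.233), and adjusted p ranged from 0.00776 to 0.233 over the alternatives.

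For gut-draining nodes as a whole against inguinal nodes, C1qa was at 567 ± 83.5 against 480.5 ± 17.5 CPM (mean ± SD, n = 16 and 4), a log2 fold change of 0.23 ± 0.0632 with adjusted p = 0.00980. Without inguinal library 1 its adjusted p was 0.0520, in a range of 0.00267 to 0.0520. C1qb was at 632 ± 90.2 against 559 ± 21.7 CPM (0.17 ± 0.0578, adjusted p = 0.0405). Its call held only when the library left out was duodenal 1 or 2, jejunal 1, ileal 1 or 2 or ceco-colonic 4, and its adjusted p ranged from 0.0177 to 0.158. C1qc averaged 531 CPM, with single libraries from 362 to 694 CPM, against 509 ± 27.5 CPM, and was not called, with a 95% interval of the log2 fold change from -0.11 to 0.19.

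Ileal nodes also exceeded ceco-colonic nodes. The log2 fold changes were 0.31 ± 0.0788 for C1qa (adjusted p = 0.0109), 0.26 ± 0.0723 for C1qb (0.0207) and 0.39 ± 0.0906 for C1qc (0.00647). The call of C1qc was kept in every alternative. That of C1qa was lost without ileal library 4 or ceco-colonic library 4 (range of adjusted p 0.00281 to 0.0606). That of C1qb was lost without ileal library 3 or 4 or ceco-colonic library 1 or 4 (0.0107 to 0.0999). C1qb in duodenal against ceco-colonic nodes (-0.23 ± 0.0723, adjusted p = 0.0331) was kept in 9 of the 20 fits with 1 library left out, those without duodenal 1 or 3, jejunal 1, 2 or 4, ileal 3, ceco-colonic 4 or inguinal 1 or 2, with a range of 0.0152 to 0.162.

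Markers of macrophages differed between duodenal and ileal nodes as well. Of 14 macrophage genes, a list that holds no C1q gene, 0 were higher and 6 lower in duodenal nodes, where 14.6% of all genes were called. The summed level of the 14 was 4210 to 5396 CPM in duodenal against 5894 to 6919 CPM in ileal libraries. The 6 lower genes were Adgre1, Csf1r, Mertk, Marco, Cd5l and Siglec1. Cd5l, which encodes a protein secreted by tissue macrophages, stood at 204 ± 33.4 CPM in duodenal and 490.5 ± 70.1 CPM in ileal nodes, and Csf1r, the receptor for the macrophage growth factor, at 670.4 ± 93.9 and 1026 ± 123 CPM (SD, n = 4 each). Duodenal against jejunal nodes had 0 of the 14 higher and 7 lower (2.83% of all genes called). Ileal against ceco-colonic nodes had 8 higher and 2 lower (12.8% of all genes called). The summed level was 6102 to 6611 CPM in jejunal, 5317 to 5645 CPM in ceco-colonic and 5081 to 5686 CPM in inguinal libraries. No marker of the list was at 0 at any position, the lowest mean being that of Cd163 at 4.15 CPM in ceco-colonic nodes. In gut-draining against inguinal nodes 3 of the 14 were higher and 6 lower, where 26.3% of all genes were called. Timd4, a receptor of resident macrophages, had position means of 27.3 to 46 CPM in the gut and 331 CPM in inguinal nodes. Csf1r went the other way, with position means of 667 to 1026 CPM in the gut and 640 CPM in inguinal nodes. Other lists differed between duodenal and ileal nodes too. Smooth muscle genes had 6 of 6 higher in duodenal nodes, with summed levels of 280 to 1295 against 265 to 288 CPM, and all 10 pancreatic acinar genes were higher. Adipocyte genes had 0 higher and 4 of 8 lower (160 to 352 against 535 to 872 CPM), and mesothelial genes 0 higher and 4 of 6 lower (2.27 to 3.56 against 4.98 to 7.25 CPM). Endothelial genes had 2 higher and 3 lower of 8 (942 to 1362 against 1177 to 1407 CPM), and monocyte and neutrophil genes 3 higher and 0 lower of 8 (486 to 626 against 430 to 512 CPM). Whether these markers have a part in the C1q differences was not tested.

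Cfp encodes properdin, which stabilises the C3-splitting enzyme of the alternative pathway, and lies on the X chromosome. It had 242, 196, 238 and 218 CPM in duodenal, 256, 274, 276 and 261 CPM in jejunal, 287, 269, 306 and 296 CPM in ileal, 232, 238, 262 and 235 CPM in ceco-colonic and 219, 244, 239 and 253 CPM in inguinal libraries. Ileal libraries lay above all duodenal, ceco-colonic and inguinal libraries. Cfp was lower in duodenal than in ileal nodes by 0.38 on the log2 scale (-0.38 ± 0.0674, adjusted p = 0.00160 in edgeR's quasi-likelihood test), and this call was kept in every alternative. In ileal against inguinal nodes it was higher by 0.28 ± 0.0674 (adjusted p = 0.00440), also kept throughout. In ileal against ceco-colonic nodes it was higher by 0.26 ± 0.0674 (adjusted p = 0.0133), a call lost without ileal library 3 or ceco-colonic library 1 or 4 (range 0.00474 to 0.0575). In duodenal against jejunal nodes, -0.26 ± 0.0674 was called at adjusted p = 0.0459, but only the fits without duodenal library 1 or 3 or ceco-colonic library 3 kept that call among those leaving out 1 library (range 0.0128 to 0.302). Gut-draining nodes as a whole stood at 255 ± 29.4 against 239 ± 14.3 CPM in inguinal nodes and were not called.

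C1ra encodes a C1r protease, which activates C1s within the C1 complex, and Serping1 encodes the inhibitor that removes C1r and C1s from it. C1ra had 353, 377, 407 and 389.6 CPM in duodenal, 379, 367, 397 and 408 CPM in jejunal, 369, 383, 413 and 386 CPM in ileal, 325, 351, 359 and 352 CPM in ceco-colonic and 329, 419.6, 401 and 408 CPM in inguinal libraries. Position means of C1ra differed little, with ceco-colonic nodes the lowest at 347 ± 14.9 CPM and inguinal nodes the highest at 389 ± 41.1 CPM. Serping1 had 476, 539.5, 616 and 569 CPM in duodenal, 547, 609, 612 and 648 CPM in jejunal, 590.4, 645, 679 and 628 CPM in ileal, 583, 638, 668 and 619.7 CPM in ceco-colonic and 475.5, 585, 589 and 599.5 CPM in inguinal libraries. Inguinal library 1 stood well below the other 3 inguinal libraries for both genes.

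Neither gene was called in any comparison. C1ra was nearest to the threshold where ceco-colonic nodes were involved, and Serping1 in duodenal against ileal nodes. In gut-draining against inguinal nodes C1ra stood at 376 ± 24.5 against 389 ± 41.1 CPM, with a 95% interval of the log2 fold change from -0.17 to 0.06 (adjusted p = 0.553). Serping1 stood at 604 ± 52.4 against 562 ± 58.1 CPM, with an interval from -0.04 to 0.24 (adjusted p = 0.294). In small intestinal against ceco-colonic nodes C1ra was at 386 ± 18.4 against 347 ± 14.9 CPM (0.15 ± 0.0572, adjusted p = 0.0743, with a range of 0.0193 to 0.229 over the alternatives). It was called there without duodenal library 1 (adjusted p = 0.0403), without duodenal libraries 1 and 2 (0.0438) and without inguinal library 1 (0.0285). In ceco-colonic against inguinal nodes C1ra had a log2 fold change of -0.17 ± 0.0694 (adjusted p = 0.0986), and of -0.25 without inguinal library 1 (adjusted p = 0.00829). Serping1 in small intestinal against ceco-colonic nodes was at 597 ± 56.1 against 627 ± 35.8 CPM (-0.07 ± 0.0672, adjusted p = 0.545). In duodenal against ileal nodes its log2 fold change was -0.21 ± 0.0827 (adjusted p = 0.0952 in edgeR's quasi-likelihood test). It was -0.19 ± 0.0827 in duodenal against ceco-colonic nodes (0.134) and 0.18 ± 0.0827 in ileal against inguinal nodes (0.143). Reads of C1ra may be shared with its paralog C1rb, which had 2231 to 6630 estimated counts per library, against 59017 to 129023 for C1ra.

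C4b, the component cleaved by C1s on the way to the classical C3-splitting enzyme, showed the firmest difference from the inguinal node. It had 1189, 1258, 1321 and 1313 CPM in duodenal, 1163, 1267, 1337 and 1423 CPM in jejunal, 1223, 1285, 1450 and 1317 CPM in ileal, 973, 1053, 1301 and 1140 CPM in ceco-colonic and 789, 852, 983 and 956 CPM in inguinal libraries. All small intestinal libraries lay above all inguinal libraries, while ceco-colonic library 1 fell within the inguinal range. Gut-draining nodes averaged 1251 ± 125 CPM and inguinal nodes 895 ± 90.3 CPM (SD, n = 16 and 4), a log2 fold change of 0.48 ± 0.0720 (adjusted p = 3.11e-05 in edgeR's quasi-likelihood test) that was called in every alternative and ranged from 0.42 to 0.53 when 1 library was left out. By position it was 0.51 ± 0.0882 for duodenal (adjusted p = 2.25e-04), 0.54 ± 0.0882 for jejunal (1.23e-04), 0.56 ± 0.0882 for ileal (7.31e-05) and 0.32 ± 0.0881 for ceco-colonic nodes (0.0121). The ceco-colonic call was lost without ceco-colonic library 3 or inguinal library 1 (range 1.43e-04 to 0.0633). The F-test among the gut positions did not call C4b (adjusted p = 0.157). It did without ceco-colonic library 3 (adjusted p = 0.0323), and with the replicate number of the labels as a block (0.00528).

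Small intestinal nodes had C4b at 1295 ± 85.1 CPM and ceco-colonic nodes at 1117 ± 141 CPM (SD, n = 12 and 4). The log2 fold change of 0.21 ± 0.0727 had adjusted p = 0.0494. Of the fits that left out 1 library, only those without duodenal 1, jejunal 1, ileal 1, ceco-colonic 3 or inguinal 1 or 3 kept this call, and adjusted p ranged from 0.00101 to 0.226 over the alternatives. C4a, a close paralog with 790 to 1888 estimated counts per library, can share reads with C4b, which had 146145 to 357021.

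C3, whose fragments coat targets and feed both pathways, had 5735, 6860, 6699 and 7621 CPM in duodenal, 6565, 5539, 7314 and 7901 CPM in jejunal, 6206, 7133, 7962 and 6433 CPM in ileal, 5463, 5824, 7613 and 6044 CPM in ceco-colonic and 4745, 5874, 6303 and 6572 CPM in inguinal libraries. Libraries of 1 position spread over more than the distance between positions. Gut-draining nodes averaged 6682 ± 842 and inguinal nodes 5874 ± 805 CPM, with a log2 fold change of 0.19 ± 0.1003, a 95% interval from -0.03 to 0.39 and adjusted p = 0.201. In small intestinal against ceco-colonic nodes C3 stood at 6831 ± 791 against 6236 ± 949 CPM (adjusted p = 0.471), and the F-test among gut positions gave adjusted p = 0.769. Differences of this size were not detectable at the spread of these libraries.

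Cfb encodes factor B, which supplies the protease of the alternative pathway enzyme. It had 664, 542, 603 and 575 CPM in duodenal, 589.6, 594, 653 and 657 CPM in jejunal, 644, 703, 744 and 722 CPM in ileal, 498, 553, 560.3 and 519 CPM in ceco-colonic and 469, 635, 499.9 and 533 CPM in inguinal libraries. Ileal libraries were above all ceco-colonic and inguinal libraries, and inguinal library 2 stood above the other 3 inguinal libraries. In ileal against ceco-colonic nodes the log2 fold change was 0.40 ± 0.0832 (adjusted p = 0.00244), and in ileal against inguinal nodes 0.40 ± 0.0832 (adjusted p = 0.00130). Both calls were kept in every alternative. Small intestinal nodes averaged 641 ± 62.0 and ceco-colonic nodes 533 ± 29.5 CPM (0.26 ± 0.0689, adjusted p = 0.0107), a call lost without ceco-colonic library 1 (adjusted p = 0.0565, range 0.00296 to 0.0565).

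In gut-draining against inguinal nodes Cfb stood at 614 ± 73.1 against 534 ± 72.1 CPM, with a log2 fold change of 0.19 ± 0.0665 and adjusted p = 0.0368. That call was kept in 9 of the 20 fits with 1 library left out, those without duodenal 1, 2 or 4, jejunal 1 or 2, ileal 1, ceco-colonic 1 or 4 or inguinal 2, and adjusted p ranged from 0.00248 to 0.407. The readthrough gene Gm20547, which overlaps Cfb and its neighbour C2, had 14 to 234 estimated counts per library, against 82558 to 195210 for Cfb. Interferon-responsive genes were also higher in gut-draining nodes: 13 of 14 listed were called higher than in inguinal nodes and 0 lower, where 26.3% of all genes were called. Their summed level was 2733 to 3321 CPM in duodenal, 2311 to 3395 CPM in jejunal, 2562 to 4734 CPM in ileal, 2255 to 2990 CPM in ceco-colonic and 1612 to 2136 CPM in inguinal libraries. The part of interferon in the Cfb and C4b differences was not tested.

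The 9 genes fell into sets that varied together from library to library. Over the 20 libraries, which share positions in sets of 4 and vary in depth, Pearson's r of log2 CPM was 0.97 between C1qa and C1qb, 0.93 between C1qb and C1qc and 0.93 between C1qb and Cfp. After the mean of each position was taken off, r was 0.91 between C1qa and C1qb and 0.78 between C1qb and Cfp. C1ra, Serping1, C3 and C4b formed another set within positions, with r of 0.90 between C1ra and Serping1, 0.83 between C3 and C4b, 0.80 between C4b and Serping1 and 0.79 between C1ra and C3. Over all 20 libraries without that step, C1ra and Serping1 had r of only 0.42. Serping1 was then closer to C1qb (0.65), C1qc (0.64), Cfp (0.57) and C1qa (0.56), with 0.60 for C3 and 0.50 for C4b. C1qa and C3 were weakly related, at 0.34 over all libraries and 0.16 within positions. The sets were not separate for C1qc, which within positions had r of 0.68 with C4b, 0.65 with Serping1, 0.57 with C1ra and 0.48 with C3. Cfb was closer to C1qa (0.75 and, within positions, 0.67) than to C3 (0.51 and 0.33). These values describe the libraries and were given no test.

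**Figure D3:**
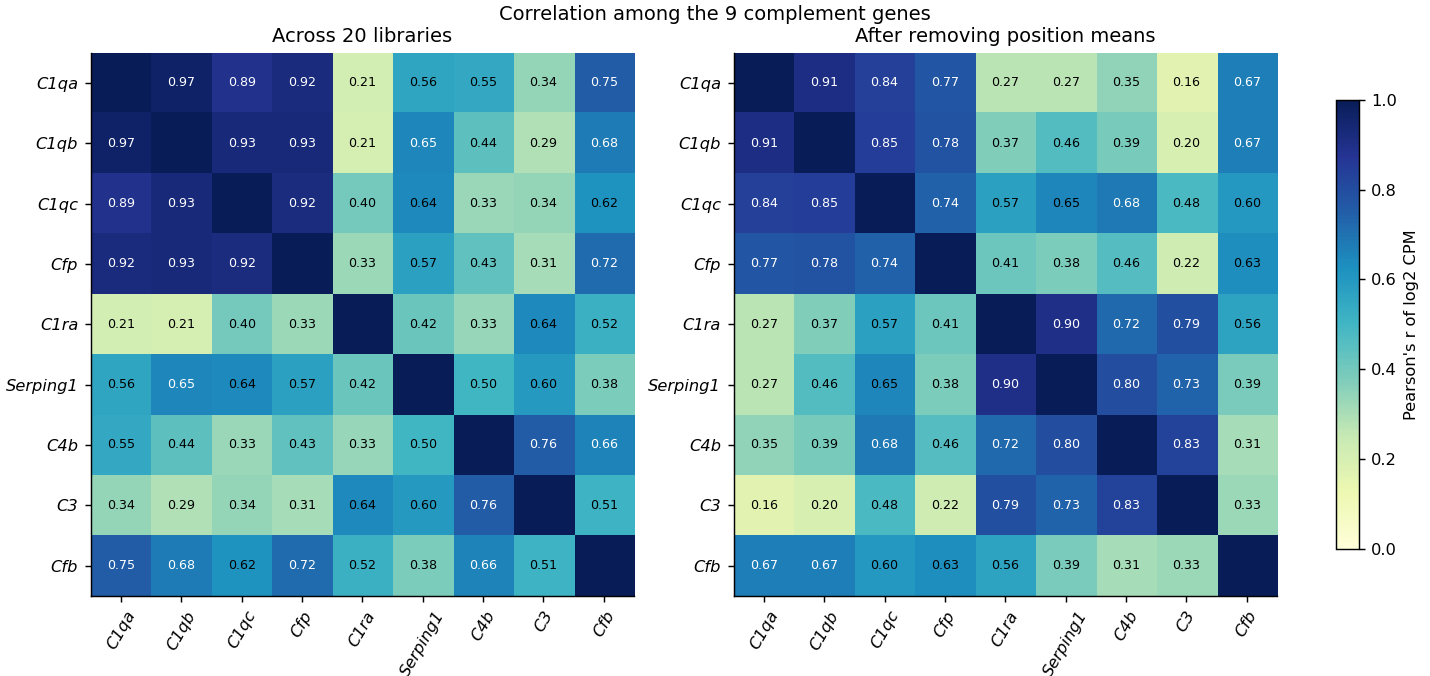
Pearson's r of log2 CPM for each pair of the 9 genes (rows and columns), over the 20 libraries at left and after removing the mean of each position at right, on a colour scale from 0 to 1. The C1q genes and Cfp are close to each other in both panels, and C1ra, Serping1, C4b and C3 are closest to each other at right.

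A search over 11659 genes at 5 CPM or more gave the genes most like each of the 9 in log2 CPM over the 20 libraries. For C1qb they were C1qa, Cfp, C1qc, Gipc1 and Cd5l (r from 0.97 to 0.92). For C1qa they were C1qb, Slc25a39, Neu1, Psen2 and Gipc1 (0.97 to 0.93), and for C1qc they included Sgta, Ltbr, Mark4 and Vsir (each 0.96). For Cfp they included C1qb, St6galnac4, C1qa and C1qc (0.93 to 0.92). C4b was most like Prrt1, Gpnmb, Fendrr, Hivep2 and Entpd2 (0.96 to 0.92). Cfb was most like Ly6e, Evl, Vps37b, Irf7 and Ifitm3 (0.92 to 0.85), of which Ly6e, Irf7 and Ifitm3 are known interferon-responsive genes and Irf7 belongs to the interferon list. C3 was most like Ndst1, Ern1, Foxf1, Gdf15 and Zfp691 (0.86 to 0.81), C1ra most like Procr, Ets2, Socs5, Magi1 and Gstt1 (0.82 to 0.76), and Serping1 most like Elk3, Zswim4, Extl3, Zfp341 and Plekho2 (0.90 to 0.88).

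Ratios of TPM within a library do not depend on library scaling. C1qc over C1qa lay between 0.65 and 0.78 in duodenal, between 0.75 and 0.81 in jejunal, between 0.79 and 0.85 in ileal, between 0.73 and 0.83 in ceco-colonic and between 0.87 and 0.90 in inguinal libraries, so every gut library lay below every inguinal library. C1qb over C1qa varied less between positions, with position means between 1.04 (duodenal and jejunal nodes) and 1.10 (inguinal nodes). Serping1 over C1ra was highest in ceco-colonic nodes, at 3.28 to 3.47, followed by 2.98 to 3.14 in ileal nodes. It was 2.52 to 2.82 for duodenal, 2.69 to 3.09 for jejunal and 2.60 to 2.74 for inguinal libraries. These ratios were picked after the levels were seen and are given as a description.

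**Figure D4:**
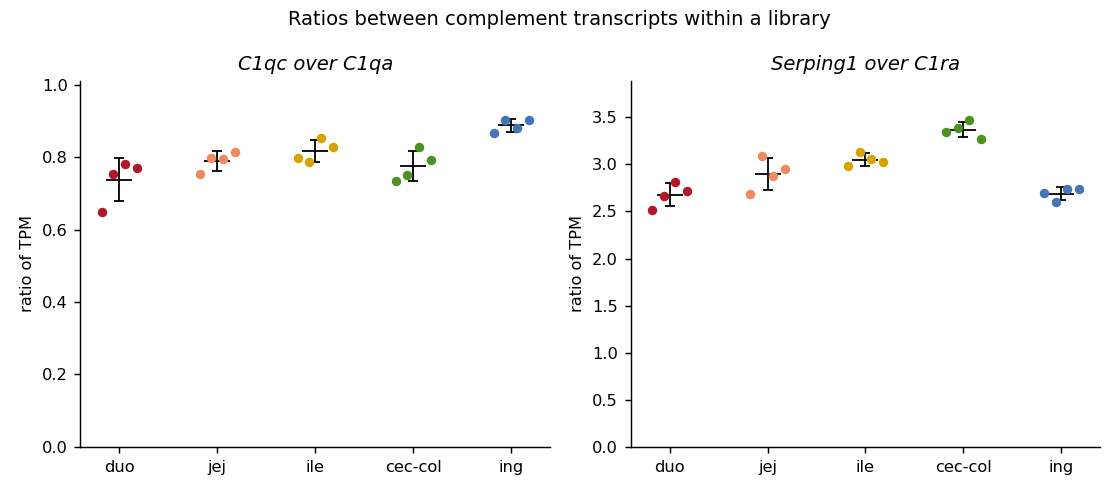
Ratio of TPM of C1qc over C1qa (left) and of Serping1 over C1ra (right) in each library (points) by position, with mean and SD as bars and axes from 0. Inguinal libraries lie at 0.87 to 0.90 for C1qc over C1qa, above all gut libraries, and ceco-colonic libraries at 3.28 to 3.47 for Serping1 over C1ra, above all others.

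C1qa, C1qb and C1ra each had a single transcript in the deposited tables, and the main protein-coding transcript carried 99.5% of C1qc, 94.7% of C3, 93.2% of Cfp, 91.5% of Serping1 and 87.8% of C4b, as means of 20 libraries. Cfb was divided over several protein-coding transcripts, of which the largest took 38.7% on average. A short noncoding transcript of C3 took 0.01% to 1.02% of its TPM in duodenal libraries and 0.45% in jejunal library 1, against 2.33% to 11.4% in the other 15 libraries. A retained-intron transcript of C4b took 22.1% in duodenal library 1 and 5.47% to 10.9% in the other 19. These shares are estimates from shared sequence and were given no test.

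The other genes of the complement system were counted from lists covering the classical, lectin, alternative and terminal pathways, regulators and receptors. Of 50 such genes, 43 were tested. In gut-draining against inguinal nodes 18 were higher and 7 lower, with a median log2 fold change of 0.08, where 26.3% of all genes were called with a median of 0.00. In small intestinal against ceco-colonic nodes 18 were higher and 4 lower, with a median of 0.20, where 16.6% of all genes were called with a median of 0.01. The fold changes of several were larger than those of any of the 9 genes.

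Among recognition and entry genes, Fcna, a ficolin of the lectin pathway, was at 104 ± 34.6 CPM in gut-draining and 16.5 ± 3.81 CPM in inguinal nodes (log2 fold change 2.59 ± 0.150), and at 119 ± 24.97 CPM in small intestinal and 58.7 ± 7.28 CPM in ceco-colonic nodes. Colec11, a collectin, was higher in both comparisons (0.50 ± 0.0861 and 0.60 ± 0.0889), whereas Masp1, a lectin pathway protease, was lower in gut-draining nodes (-1.17 ± 0.130). Colec11 was at 17.1 ± 2.255 CPM in small intestinal nodes, but at similar levels in ceco-colonic (11.3 ± 0.98 CPM) and inguinal nodes (10.9 ± 0.60 CPM). C2, which joins C4b in the classical enzyme, was at 207 ± 37.6 against 177 ± 8.10 CPM in inguinal nodes. That call was lost without inguinal library 1 (adjusted p = 0.0856, range 0.00721 to 0.0856). By position, C2 was called higher than inguinal in jejunal (224 ± 24.0 CPM) and ileal nodes (244 ± 15.2 CPM), and not in duodenal (204 ± 13.1 CPM) and ceco-colonic nodes (155 ± 12.8 CPM). It was higher in small intestinal than in ceco-colonic nodes by 0.53 ± 0.0641, and C1rb by 0.77 ± 0.0926. C1s1, the main C1s gene by level, was not called (523 against 499 CPM in inguinal nodes).

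Of the terminal pathway, whose proteins form the membrane pore, C7 was higher in gut-draining nodes (41.2 ± 13.2 against 7.02 ± 3.98 CPM, 2.53 ± 0.305) and C6 less so (64.2 ± 31.2 against 38.8 ± 4.67 CPM, 0.58 ± 0.143). By position, C6 was called higher than inguinal in jejunal (82.5 ± 21.6 CPM) and ileal nodes (99.8 ± 13.2 CPM), and not called in duodenal (32.6 ± 6.83 CPM) and ceco-colonic nodes (41.9 ± 7.77 CPM). Of the secreted regulators, Vtn (vitronectin, 182 ± 23.0 against 90.7 ± 12.3 CPM) and Cfi (factor I, 5.08 ± 1.88 against 1.02 ± 0.164 CPM) were higher in gut-draining nodes. Cfi ran the other way within the gut, with 4.10 ± 0.711 CPM in small intestinal and 8.01 ± 0.745 CPM in ceco-colonic nodes. Clu, clusterin, was not called (1532 against 1566 CPM in inguinal nodes). The membrane regulator Cd55, which breaks up C3-splitting enzymes, was higher in small intestinal nodes (191 ± 36.8 against 101 ± 11.4 CPM in ceco-colonic nodes, 0.91 ± 0.0969), as were Cd59a (0.55 ± 0.130) and Cr1l (0.20 ± 0.0485). None of the 3 was called in gut-draining nodes as a whole against the inguinal node, where the positions differed: all 3 were lower in ceco-colonic than in inguinal nodes (Cd55 -0.68 ± 0.113, Cd59a -0.45 ± 0.155 and Cr1l -0.17 ± 0.0587), and Cd55 was higher in jejunal (0.36 ± 0.112) and ileal nodes (0.42 ± 0.112).

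Of the receptors, C3ar1 (0.50 ± 0.0981), C5ar1 (0.78 ± 0.172), C5ar2 (0.68 ± 0.0816) and Cd93 (0.29 ± 0.0696) were higher and Itgam, a subunit of the receptor for C3 fragments on phagocytes, lower in gut-draining than in inguinal nodes (63.2 ± 9.56 against 119 ± 8.88 CPM, -0.92 ± 0.0653). Itgax, the partner subunit of another such receptor, was lower in small intestinal than in ceco-colonic nodes (-0.43 ± 0.0755), and so was C3ar1 (-0.45 ± 0.0952). Vsig4, a C3b receptor of resident macrophages, had position means of 0.01 to 0.05 CPM. Apart from Cd55 in jejunal (adjusted p = 0.0260) and Cd59a and Cr1l in ceco-colonic against inguinal nodes (0.0427 and 0.0472), called genes of these paragraphs had adjusted p of 0.0164, for C2, or less in the quasi-likelihood test of edgeR.

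Cfd, the alternative pathway protease also called adipsin and made by adipocytes, was higher in small intestinal than in ceco-colonic nodes (274 ± 201 against 70.3 ± 44.0 CPM, 1.70 ± 0.555, adjusted p = 0.0405). It ranged from 28.0 to 742 CPM over the small intestinal libraries. Its call was lost in 9 of 20 fits with 1 library left out, those without duodenal 2 or 3, jejunal 2, ileal 1 or 4, ceco-colonic 2, 3 or 4 or inguinal 4 (range of adjusted p 0.0162 to 0.142). A list of 8 adipocyte genes other than Cfd had 3 higher and 0 lower in the same comparison, where 16.6% of all genes were called. The summed level of this list was 160 to 352 CPM in duodenal, 455 to 1406 CPM in jejunal and 535 to 872 CPM in ileal libraries, against 145 to 307 CPM in ceco-colonic libraries. The part of adipocytes in the level of Cfd was not tested.

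The remaining named genes were called less firmly, apart from Hc, the mouse C5 gene, in small intestinal against ceco-colonic nodes. There Hc was higher (7.11 ± 1.24 against 4.76 ± 1.09 CPM), with a log2 fold change of 0.58. Its adjusted p was 0.0046 in edgeR's quasi-likelihood test, and the call was kept in every alternative. In gut-draining against inguinal nodes, C1rb (log2 fold change 0.31) was lost without inguinal library 1 or 4, and Hc (0.38) without inguinal library 2, 3 or 4. Itgb2, the shared subunit of the receptors for C3 fragments, was lower (-0.23) and was lost without inguinal library 2. C1rl, a C1r-like protease, was lower (-0.15). It was lost without duodenal library 2 or 4, jejunal 3, ileal 2, ceco-colonic 2 or 4 or inguinal 2, 3 or 4. Cpn1, which inactivates complement peptides, was higher (1.055). It kept its call only without duodenal library 1, 3 or 4, jejunal 2, ileal 1 or ceco-colonic 2 or 4. In small intestinal against ceco-colonic nodes, C1s2 (0.24) was lost without jejunal library 2 or ceco-colonic library 1 or 3. Cd46 (0.335) was lost without ceco-colonic library 1, 2 or 4, and Cpn1 (1.32) without ceco-colonic library 2, 3 or 4. Itgam, which was lower (-0.23), was lost without ceco-colonic library 3 or 4. C1rl, here higher (0.22), was lost without ceco-colonic library 4. The adjusted p of these less firm calls reached at most 0.431 over the alternatives, for Hc in gut-draining against inguinal nodes.

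**Figure D5:**
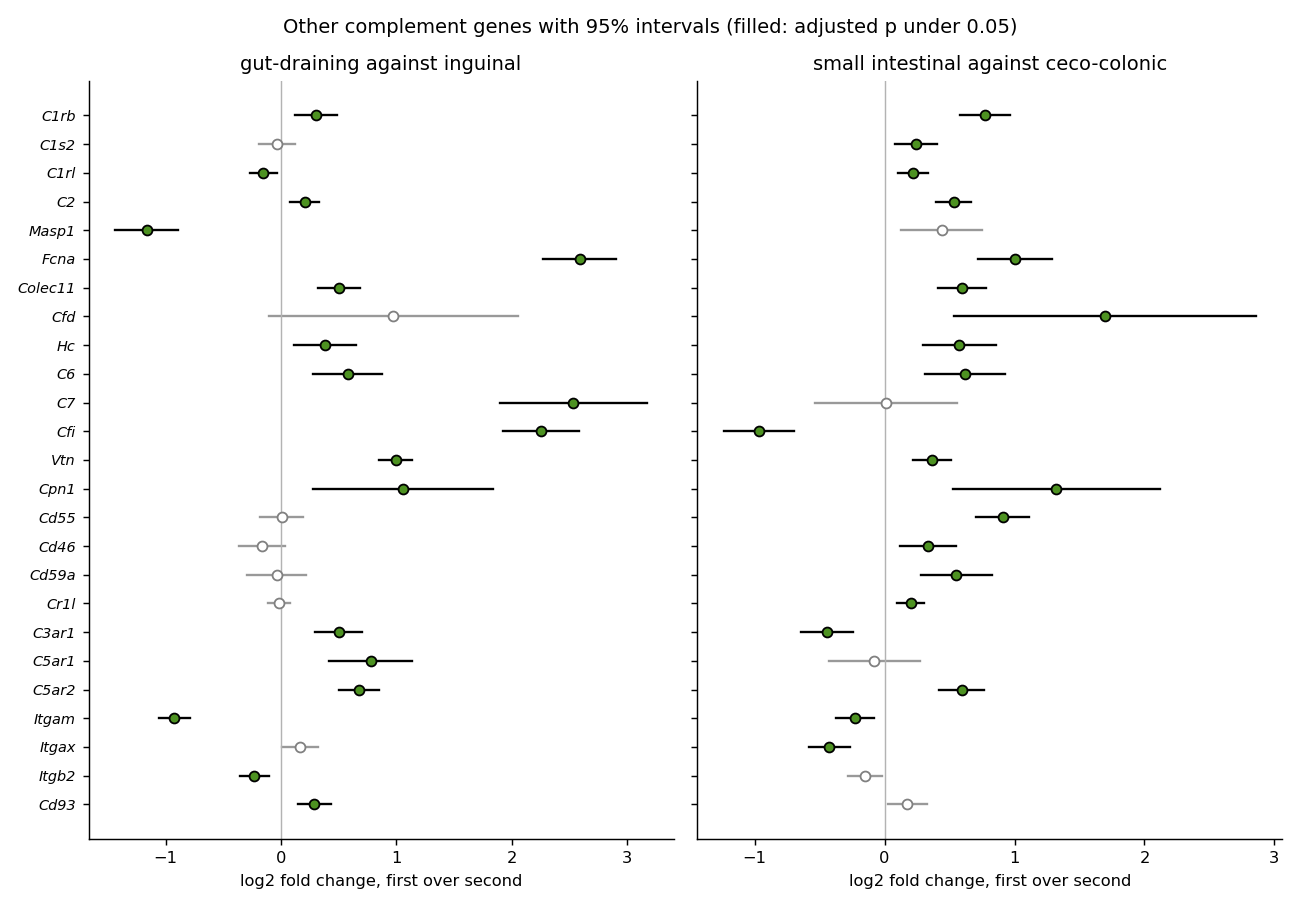
Log2 fold change (horizontal axis, position named first over position named second) with 95% interval of other complement genes (rows) in gut-draining against inguinal (left) and small intestinal against ceco-colonic nodes (right), with filled points for adjusted p under 0.05. Fcna, C7 and Cfi stand above 2 at left, and Cfi is below 0 at right.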

How the data were processed

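Bulk polyA RNA of 20 whole lymph node libraries was used. The submitters' processing notes name kallisto, limma and edgeR, and the builds GRCm39 and mm10; which version or build served which step is not given in the sources used here. Per the file headers, the transcript tables hold estimated counts and TPM. The gene table that the authors deposited also holds expected counts: of its values for 12483 genes with 500 counts or more, 99.67% lay within 0.001 (log2) of length-scaled TPM, so they depend on estimated transcript lengths.

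Those estimates were rounded and entered into edgeR 4.0.16 (R 4.3.3) with filterByExpr (minimum count 10, minimum total 15) and TMM. A single quasi-likelihood model held all 20 libraries, with a mean for each position. Adjusted p-values are Benjamini-Hochberg values over all 29411 genes of a comparison, and intervals are 95%. Log2 CPM had a prior count of 2. The test was checked on simulated data with 100 genes changed 1.5-fold. It recovered 42% of them in gut-draining against inguinal and 27% in duodenal against ileal nodes, with 6.67% and 3.57% of calls false. Among all genes tested, many differences of this size can therefore be missed. The shares recovered are for the whole set of 29411 genes and were not worked out for genes as abundant as the complement genes followed here. They therefore do not give the chance of missing a 1.5-fold change in these. In gut-draining against inguinal nodes C4b was called at 1.395-fold and C1qb at 1.121-fold, while C3 was not called at 1.137-fold. Alternatives were DESeq2 1.42.0, limma-voom (limma 3.58.1), no filter on low counts, DESeq2-style size factors, plain sums of transcript estimates, the replicate number as a block, only the groups compared, and libraries left out. TPM served only for levels and ratios and was given no calls.

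The 9 genes, the gene lists and the comparisons were chosen with earlier results of these data known. All 9 genes are named, with those other complement genes that reach 1 CPM at a position and are called in gut-draining against inguinal or small intestinal against ceco-colonic nodes, and the 5 genes most correlated with each of the 9. C1s1, Clu and Vsig4 were named outside that rule after their values had been seen. Some results that this rule gives are not reported here. Genes named Gm or Rik were left out of the correlation search. Coordinates are given only for the RefSeq sequences.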

Additional observations from a re-analysis of the deposited data

Results flagged for a closer look

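Serping1 was at 475.5 CPM in inguinal library 1, against 585 to 599.5 CPM in the other 3 inguinal libraries, a gap large for the spread of the 4. Of 45 groups of 4 libraries looked at (9 genes at 5 positions) this was the only one so marked, and chance marks about 1 in 20 such groups.

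C1qc was lower than inguinal in duodenal nodes and higher than inguinal in ileal nodes. The difference between those effects is the duodenal against ileal comparison, -0.62 on the log2 scale, which was called in every alternative. Both effects share the inguinal libraries, and this pair was picked after the results had been seen.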

How the results depend on the processing

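No called value of a named gene changed its direction under any alternative. Of the 32 calls of the 9 genes in pairwise and mean comparisons, 16 were kept in every alternative: C4b in gut-draining, duodenal, jejunal and ileal against inguinal, C1qa and C1qb in jejunal and ileal against inguinal, Cfb and Cfp in ileal against inguinal, C1qa, C1qb, C1qc and Cfp in duodenal against ileal, and C1qc and Cfb in ileal against ceco-colonic nodes. TPM, which was given no calls, is not among these alternatives. In TPM the C1qb levels of jejunal (879 to 1082) and inguinal libraries (841 to 939) overlapped.

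The number of the 9 genes called moved by more than 1.5 times as follows. With size factors of the DESeq2 type it was 1 in small intestinal against ceco-colonic nodes. Without a filter on low counts it was 2 in gut-draining against inguinal, 1 in small intestinal against ceco-colonic and 0 in duodenal against ceco-colonic nodes. With plain sums of estimated counts it was 2 in gut-draining against inguinal and 0 in small intestinal against ceco-colonic nodes. With only the groups compared it was 1 in small intestinal against ceco-colonic, 0 in duodenal against jejunal and 0 in duodenal against ceco-colonic nodes. Without duodenal libraries 1 and 2 it was 1 in duodenal against inguinal, 0 in duodenal against jejunal, 0 in duodenal against ceco-colonic and 1 in jejunal against ceco-colonic nodes. The causes were not tested.

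The replicate numbers were not taken as pairs, because the labels do not say whether they mark an animal. After the mean of each position was taken off, same-numbered libraries had a mean r of 0.077, against -0.026 for other numbers. Of the 40 same-numbered pairs, 13 had r over 0.1, and 17 of 20 libraries were closest to their own number. Libraries of the same number were thus more alike. With the replicate number as a block, 3 were called in ceco-colonic against inguinal, 4 in duodenal against ceco-colonic and 1 in jejunal against ceco-colonic nodes. The block called C1ra in ceco-colonic against inguinal (adjusted p = 0.0325) and small intestinal against ceco-colonic nodes (0.0193), and Serping1 in ileal (0.0130) and ceco-colonic against inguinal (0.0268) and in duodenal against ileal (0.00845) and ceco-colonic nodes (0.0120). It also called C4b in duodenal (0.01175), jejunal (0.00592) and ileal against ceco-colonic nodes (0.00273), and C1qc in duodenal against ceco-colonic nodes (0.0370). In the F-test the block called C4b (0.00528) and Serping1 (0.0159) as well. C3 was called in no comparison under any alternative, and Cfb in duodenal against ileal nodes was called with plain sums (adjusted p = 0.0230) and DESeq2 (0.0374).

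With 1 library left out, the 9 genes had 1 to 4 calls for gut-draining, 1 to 2 for duodenal, 3 to 4 for jejunal, 5 to 6 for ileal and 0 to 1 for ceco-colonic against inguinal nodes. They had 0 to 3 for small intestinal, 0 to 1 for duodenal, 0 to 2 for jejunal and 2 to 6 for ileal against ceco-colonic nodes, 0 to 4 in duodenal against jejunal, 4 to 5 in duodenal against ileal, 0 to 0 in jejunal against ileal nodes and 5 to 6 in the F-test. The other complement genes had 20 to 26 and 16 to 24 calls in the gut-draining and small intestinal comparisons.

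With TPM in place of CPM, the log2 ratio of C1ra in gut-draining over inguinal nodes was -0.17, against -0.05. C1ra had 59017 or more estimated counts in every library, so the spread among 4 libraries limits its precision more than depth does.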
